A study of Mus musculus with 64 samples.

Results

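Receptors that raise or lower cyclic AMP (cAMP) in fat cells were followed over the day in 2 fat depots, brown (BAT) and epididymal white (eWAT). The set held 9 of the 52636 genes in the count table: *Tshr*, *Adrb1*, *Adrb3*, *Gipr*, *Mc2r*, *Ptger3*, *Hcar1*, *Hcar2* and *Adora1*. They were selected by name as G protein-coupled receptors that act on cAMP, and *Tshr* was chosen by its measured values, as the gene with the strongest loss of rhythm in BAT. In the fit described here *Tshr* ranked 1 of 20249 genes in the comparison of rhythms between genotypes in BAT. The rhythm of *Tshr* in BAT is therefore given as a description without a test. All 9 receptors passed the filter on low counts, with a count above 0 in all 64 samples.

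Hormones, nerves and metabolites set the cAMP level of an adipocyte through such receptors. Receptors coupled to Gs activate adenylyl cyclase, and cAMP then activates protein kinase A, which drives lipolysis and, in brown adipocytes, heat production. Receptors coupled to Gi inhibit the cyclase and restrain lipolysis. *Tshr* (thyrotropin), *Adrb1* and *Adrb3* (noradrenaline), *Gipr* (the incretin GIP) and *Mc2r* (ACTH) encode receptors of the activating kind. *Ptger3* (prostaglandin E2), *Hcar1* (lactate), *Hcar2* (3-hydroxybutyrate and niacin) and *Adora1* (adenosine) encode receptors of the inhibiting kind.

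The study compared wild-type (WT) mice with fat-specific *Nampt* knockout (FANKO) mice. NAMPT makes NAD+ from nicotinamide. FANKO mice carry *Nampt* tm1Jtree, in which loxP sites flank exon 3, together with Cre driven by the adiponectin promoter, so the deletion is directed to adipocytes and other cells of the depots keep the gene. Controls were Cre- littermates. All were male, 2 to 4 months old and kept on chow at room temperature with lights on from 6am to 6pm. Tissue was taken at zeitgeber time (ZT) 6, 10, 18 and 22, where ZT 0 is lights on. With 4 samples in each of 16 groups, each depot and genotype had 16 samples. The labels do not say whether replicates came from separate animals or whether both depots came from the same animals, so p values measure the spread between samples.

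The median library held 15826651 counts and the extremes 6117343 and 30544847. Levels are given in CPM, counts relative to the library total after TMM scaling of its composition. *Nampt*, the targeted gene, ranged from 479 to 1450 CPM in WT BAT and from 109 to 186 in FANKO BAT, without overlap. In eWAT it ranged from 112 to 310 in WT mice and from 101 to 131 in FANKO mice, with overlap. These are levels of whole depots. The summed CPM of 8 adipocyte markers was 14700 to 19200 in WT BAT and 6910 to 11400 in FANKO BAT, against 14500 to 24400 and 17000 to 23900 in eWAT. The sum of 6 brown adipocyte markers was 4990 to 11100 in WT BAT and 1310 to 3590 in FANKO BAT, and in eWAT 17 to 37.5 in WT and 52 to 117 in FANKO mice, without overlap (3 of 6 higher, 1 lower). Macrophage markers summed to 60.7 to 118 CPM in WT BAT and 273 to 634 in FANKO BAT, T cell markers to 0.611 to 3.05 and 32.5 to 108, and B cell markers to 0.612 to 4.59 and 6.92 to 56.3. Progenitor markers summed to 284 to 464 CPM in WT BAT and 672 to 1060 in FANKO BAT, and nerve and Schwann cell markers, of which 4 of 6 were measured, to 44.6 to 82.0 and 8.93 to 27.0. In eWAT, progenitor markers went the other way, with 1270 to 1740 CPM in WT and 769 to 1070 in FANKO mice (5 of 6 lower), while T cell markers summed to 1.69 to 5.99 and 4.92 to 15.7 (4 of 5 higher) and B cell markers to 4.08 to 39.3 and 2.97 to 7.86 (3 of 4 lower). The part of these cells in the receptor results of eWAT was not tested. Skeletal muscle markers varied within groups, from 0.845 to 470 CPM in WT BAT. Epididymis markers reached 37.1 CPM in eWAT, where 4 of 9 were measured, and the sympathetic nerve enzymes *Th* and *Dbh* had no count in 62 and 61 of 64 samples.

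A single library stood apart in its receptor levels. WT BAT replicate 4 at ZT 18 lay outside the range of the other 3 samples of its group for 9 of 9 receptors. It lay outside the range of the other 15 WT BAT samples for 5 of them. The margin was small for *Hcar2* (5.94 CPM against a lowest of 6.45 in the other 3) and *Adora1* (132 against 141). The shares of all genes outside these ranges are not given here. It had 62.6 CPM of *Ptger3* against 253 to 299 in the other 3, 15 of *Hcar1* against 38 to 108, 8.91 of *Adrb1* against 20.2 to 23.3, and the highest *Nampt* of the series. Over all genes its mean correlation with the other samples of its group was 0.973, against 0.979 to 0.985 for the other WT BAT samples. It was kept, and values without it are given where they differ.

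Promoters of 4 of the 9 receptors were listed in the RefSeq table of 300-base windows on GRCm38.p6, from 250 bases before to 50 bases after the start. The windows of *Ptger3*, *Adrb1* and *Hcar1* are shown because these were the receptors with the largest fall in FANKO BAT, and that of *Adora1* because it held the single match to a clock motif. Each is printed 5′ to 3′ on the strand of the gene, *Ptger3* from chr3:157566626-157566925 (plus strand), *Adrb1* from chr19:56721867-56722166 (plus strand), *Hcar1* from chr5:123879954-123880253 (minus strand) and *Adora1* from chr1:134235408-134235707 (minus strand). Capitals mark a motif match.
Ptger3: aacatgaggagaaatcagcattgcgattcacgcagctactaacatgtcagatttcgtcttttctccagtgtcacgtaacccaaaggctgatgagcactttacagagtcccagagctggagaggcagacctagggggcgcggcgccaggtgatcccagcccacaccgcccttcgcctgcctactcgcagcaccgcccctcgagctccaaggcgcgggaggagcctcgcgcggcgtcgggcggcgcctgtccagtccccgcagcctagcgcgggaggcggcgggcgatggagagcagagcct
Adrb1: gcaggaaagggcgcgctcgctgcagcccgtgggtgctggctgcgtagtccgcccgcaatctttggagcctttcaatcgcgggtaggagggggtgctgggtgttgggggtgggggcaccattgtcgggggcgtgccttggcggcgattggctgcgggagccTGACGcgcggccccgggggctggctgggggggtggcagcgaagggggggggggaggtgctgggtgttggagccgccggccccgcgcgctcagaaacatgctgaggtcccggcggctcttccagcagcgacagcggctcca
Hcar1: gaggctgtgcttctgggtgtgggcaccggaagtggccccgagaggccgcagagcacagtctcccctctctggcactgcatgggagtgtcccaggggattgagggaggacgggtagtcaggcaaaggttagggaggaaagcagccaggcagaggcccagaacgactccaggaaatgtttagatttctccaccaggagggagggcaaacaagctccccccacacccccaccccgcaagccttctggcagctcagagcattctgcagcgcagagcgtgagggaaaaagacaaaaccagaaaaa
Adora1: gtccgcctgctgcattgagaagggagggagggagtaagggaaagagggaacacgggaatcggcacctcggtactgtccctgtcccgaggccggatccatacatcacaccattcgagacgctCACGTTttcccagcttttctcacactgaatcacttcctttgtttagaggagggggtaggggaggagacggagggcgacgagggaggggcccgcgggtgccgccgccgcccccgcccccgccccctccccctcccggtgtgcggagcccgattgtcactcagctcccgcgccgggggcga

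The *Adora1* window held CACGTT, a noncanonical E-box, with its first base at -129 from the start. The *Adrb1* window held TGACG, the core of the cAMP response element (CRE), at -90. The other motifs searched on both strands were the E-box CACGTG, the D-box TTATGTAA or TTACGTAA, the ROR element core TAGGTCA, the whole CRE TGACGTCA, the glucocorticoid response element hexamer TGTTCT and the nuclear receptor core AGGTCA. None of these stood in the 5 windows of the 4 receptors, *Adora1* having a second start. The noncanonical E-box occurred in 4.68% and the CRE core in 20.8% of the 32851 promoters of the table, against 7.15% for the E-box, 1.06% for the D-box, 2.61% for the ROR element core, 1.79% for the whole CRE, 19% for the glucocorticoid hexamer and 16.3% for the nuclear receptor core. The CRE core also lies within the whole CRE, and the nuclear receptor core within the ROR element core. These are letter matches in a short window and were not tested for binding.

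Levels of different receptors can be compared only per exonic length. In WT BAT, *Adrb3* was highest, with a median of 41.1 CPM per kb, followed by *Ptger3* (31.5), *Adora1* (23.1), *Hcar1* (18.2), *Adrb1* (6.23), *Hcar2* (3.90), *Tshr* (2.92), *Mc2r* (1.41) and *Gipr* (0.512). The ranges of all neighbours in that order overlapped. In WT eWAT, *Adrb3* was again highest at 110 CPM per kb and its 16 samples did not overlap those of *Tshr*, which came next at 25.9. *Ptger3* (19.7), *Hcar1* (16), *Adora1* (10.7), *Mc2r* (7.68) and *Hcar2* (6.17) followed with overlapping ranges. *Adrb1* (1.07) and *Gipr* (1.03) were below all samples of *Hcar2* and overlapped each other. Thus *Tshr* ranked 7 of 9 in WT BAT and 2 of 9 in WT eWAT.

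**Figure D1:**
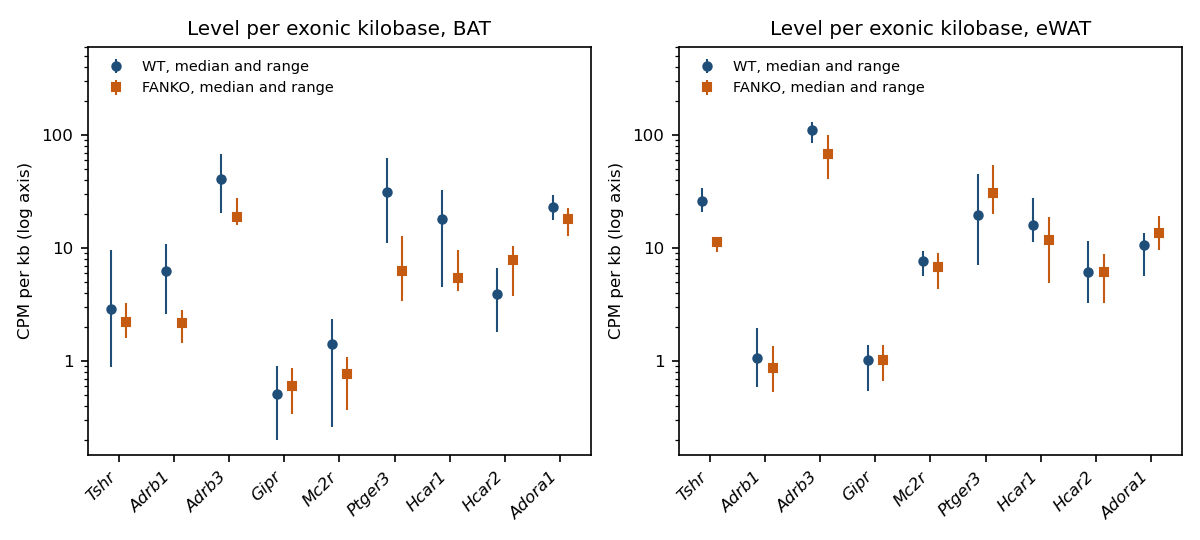
Level of each receptor in CPM per exonic kilobase (log axis) in BAT and eWAT, with points at the median and bars over the lowest to the highest of 16 samples. *Adrb3* had the highest median in every combination, and *Tshr* moved from 2.92 in WT BAT to 25.9 in WT eWAT.

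The depots of WT mice differed for 8 of 9 receptors at a false discovery rate (FDR) of 0.01, 3 higher and 5 lower in BAT. Over all genes tested, 32.7% were higher and 41.1% lower in BAT. *Tshr* was 9.04 times lower in BAT (log2 fold change -3.18, standard error 0.09, edgeR adjusted p = 8.7e-39) and *Mc2r* 5.50 times lower (-2.46 ± 0.12 SE, edgeR adjusted p = 8.3e-28). *Adrb3* (-1.37), *Gipr* (-1.03) and *Hcar2* (-0.54) were lower in BAT as well. *Adrb1* was 5.63 times higher in BAT (2.49 ± 0.12 SE, edgeR adjusted p = 1.1e-27), *Adora1* 2.18 times and *Ptger3* 1.60 times, the last with a sign that turned to -0.07 with library size scaling alone. *Hcar1* did not pass the test (-0.05, 95% interval -0.33 to 0.24, edgeR adjusted p = 0.776) except with library size scaling alone (-0.79). Library size scaling alone lowered the median log2 fold change of all genes in this comparison from -0.11 to -0.86.

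Most of the receptors were lower in FANKO BAT than in WT BAT. There 7 of 9 were lower and 1 was higher over the 4 time points, where 33.9% of all genes were lower and 33.1% higher. The falls ranged from 1.27-fold for *Adora1* to 5.11-fold for *Ptger3*, and *Hcar2* rose. In FANKO eWAT, 3 of 9 were lower (*Tshr*, *Adrb3* and *Hcar1*) and 2 higher (*Ptger3* and *Adora1*), against 22.8% and 27.6% of all genes. Without the library that stood apart, the counts were the same in both depots. With library size scaling alone they were 4 lower and 3 higher in BAT and 5 lower and 0 higher in eWAT. That scaling moved the median log2 fold change of all genes from 0.00 to 0.58 in BAT, where 63.1% of genes were then higher and 11.2% lower, and from -0.02 to -0.27 in eWAT, where 11.8% were higher and 42.4% lower.

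**Figure D2:**
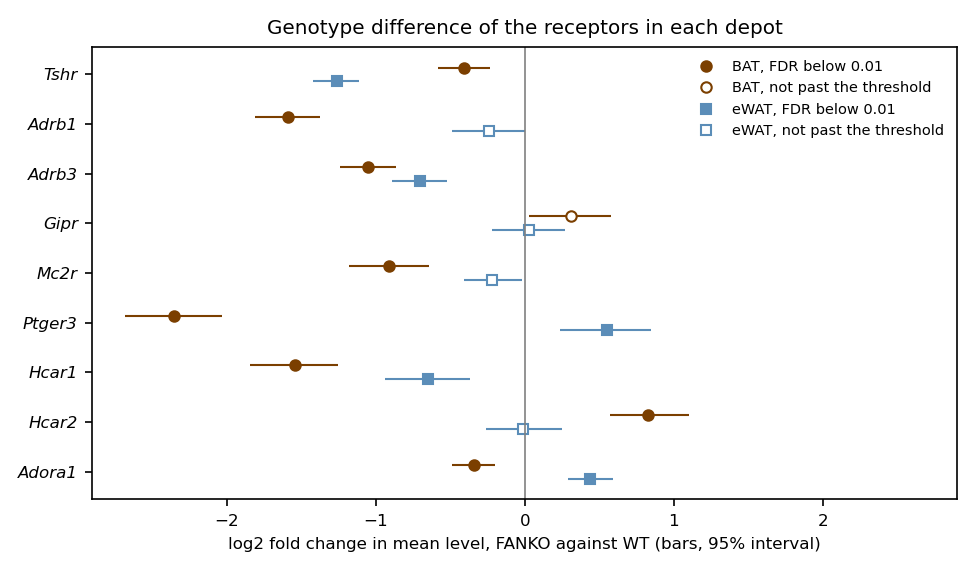
Log2 fold change of the mean level in FANKO against WT mice for each receptor in BAT and eWAT, with 95% intervals and filled symbols for an FDR below 0.01 (edgeR, 16 samples per genotype and depot). *Ptger3* lies at -2.35 in BAT and 0.55 in eWAT, and *Tshr* at -0.41 and -1.26.

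Adipocyte markers moved with the receptors in BAT, where 8 of 8 were lower in FANKO mice with a median log2 fold change of -0.80. Their part in the receptor result was not tested, and in whole tissue fewer adipocytes and less RNA per adipocyte cannot be told apart. Levels were therefore also expressed relative to the summed CPM of those 8 markers, a scale added after the data had been seen. That sum follows the most abundant marker, *Fabp4*, more than the others. Its median was 7220 CPM in WT and 3860 in FANKO BAT. In eWAT it rose from 6400 to 8970, where that of *Adipoq* fell from 2370 to 1440. On that scale 3 receptors were lower in FANKO BAT, 3 higher and 3 not past the threshold (permutation tests over samples, 100000 resamples, two-sided, adjusted over 18 comparisons). *Ptger3* was lower by a log2 difference of -1.55 ± 0.22 (SE), *Adrb1* by -0.73 ± 0.13 and *Hcar1* by -0.62 ± 0.20, with adjusted permutation p = 5.1e-05, 5.1e-05 and 0.0071. *Hcar2* (1.69), *Gipr* (1.13) and *Adora1* (0.47) were higher, each with adjusted permutation p = 5.1e-05, the smallest reached here. *Tshr* (0.43, p = 0.233), *Adrb3* (-0.19, p = 0.282) and *Mc2r* (0.05, p = 0.838) did not pass in BAT by these permutation tests. The tests pooled the time points, so that changes over the day counted as spread. For *Tshr* that spread was 1.21 (SD) in WT and 0.36 in FANKO BAT, so its result says little about a difference at fixed times. In eWAT, where 3 adipocyte markers were higher and 3 lower, *Tshr* (-1.38), *Adrb3* (-0.83), *Hcar1* (-0.79) and *Mc2r* (-0.34) were lower and *Adora1* (0.31) was higher on the same scale.

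*Tshr* encodes the thyrotropin receptor and lies on chromosome 12 of GRCm38 from 91384563 to 91549808 (plus strand, ENSMUSG00000020963, 6012 exonic bases). In WT BAT it followed the time of day closely. The 4 samples had 10.9, 18.4, 16.7 and 15.7 CPM at ZT 6, and 5.75, 5.39, 5.63 and 5.51 at ZT 10. They had 24.1, 20.8, 33.1 and 13.0 at ZT 18 and 57.7, 45.9, 50.3 and 32.2 at ZT 22. The mean thus rose from 5.57 ± 0.157 CPM (SD, n = 4) late in the light phase to 46.5 ± 10.7 late in the dark phase. The amplitude, the difference between the highest and the lowest time-point mean, was 3.00 ± 0.18 log2 CPM (SE), or 8.02-fold on that scale, which includes a prior count of 2.

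In FANKO BAT, *Tshr* stayed near the middle of that range. Its samples had 15.7, 14.0, 14.3 and 14.1 CPM at ZT 6, 11.7, 10.1, 9.97 and 12.7 at ZT 10, 11.7, 15.6, 14.4 and 9.76 at ZT 18, and 11.3, 19.7, 11.3 and 15.6 at ZT 22. All FANKO samples were above all WT samples at ZT 10 and below all of them at ZT 22, and the genotypes overlapped at ZT 6 and ZT 18. The amplitude was 0.39 ± 0.09 log2 CPM (SE). The order of the genotype means turned between ZT 6 and ZT 10 and again between ZT 10 and ZT 18, the means being 15.4 (WT) against 14.5 CPM (FANKO) at ZT 6, 5.57 against 11.1 at ZT 10, 22.7 against 12.9 at ZT 18 and 46.5 against 14.5 at ZT 22. Over the 4 time points, a measure that the choice of *Tshr* did not use, FANKO BAT was lower by -0.41 ± 0.09 on the log2 scale (SE, edgeR adjusted p = 6.8e-05). That value was 0.19 with library size scaling alone and, without replicate 3 of each group, -0.25 with an edgeR adjusted p of 0.0245.

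**Figure D3:**
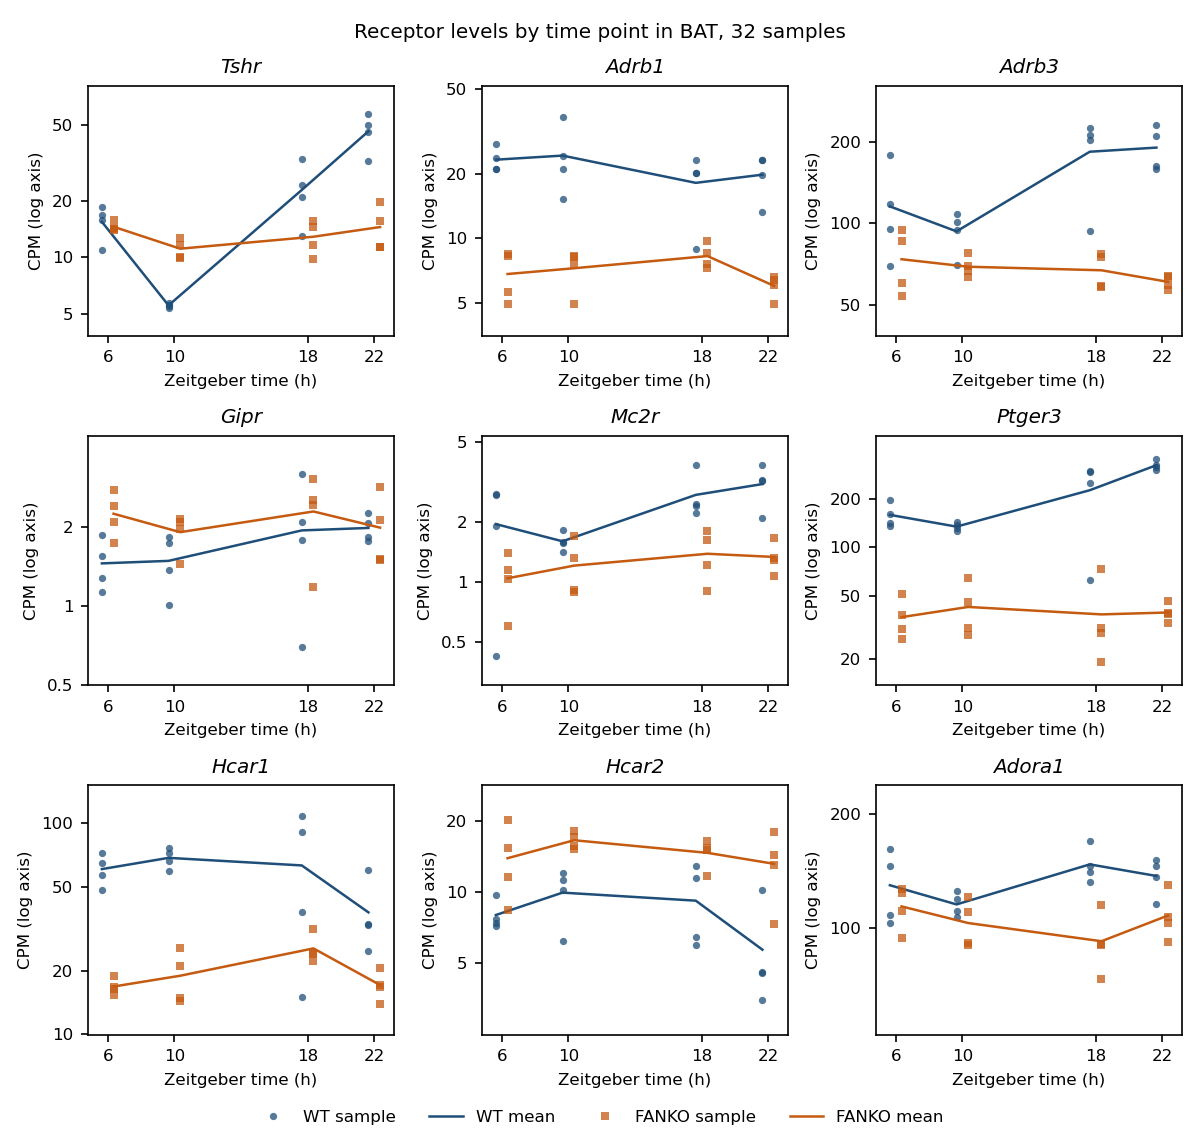
CPM (log axis) of the 9 receptors in BAT by zeitgeber time, with a point for each of 32 samples and lines through the means of 4. *Tshr* rises from 5.57 to 46.5 in WT mice between ZT 10 and ZT 22 and stays between 11.1 and 14.5 in FANKO mice. The low WT point of *Ptger3*, *Adrb1*, *Adrb3* and *Hcar1* at ZT 18 is replicate 4.

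In eWAT, *Tshr* was more abundant and its level differed between genotypes at every time point. WT samples had 125 to 206 CPM with a median of 155, and FANKO samples 55.3 to 74.0 with a median of 67.7, so that all 16 FANKO samples were below all 16 WT samples. Such separation in either direction held for 5.9% of genes in eWAT and 22.6% in BAT. No other receptor was separated in eWAT and none in BAT. The level fell by 2.40-fold (log2 fold change -1.26 ± 0.08 SE, edgeR adjusted p = 1.9e-20). Means at ZT 6, 10, 18 and 22 were 165, 149, 140 and 180 CPM in WT and 66.0, 67.8, 63.4 and 66.0 in FANKO eWAT. Rhythm did not pass the test in either genotype (edgeR adjusted p = 0.236 and 0.966), with amplitudes of 0.36 ± 0.10 and 0.10 ± 0.10 log2 CPM (SE). The genotype difference in mean level differed between depots by 0.86 ± 0.12 (SE, BAT minus eWAT, edgeR adjusted p = 6.5e-09).

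**Figure D4:**
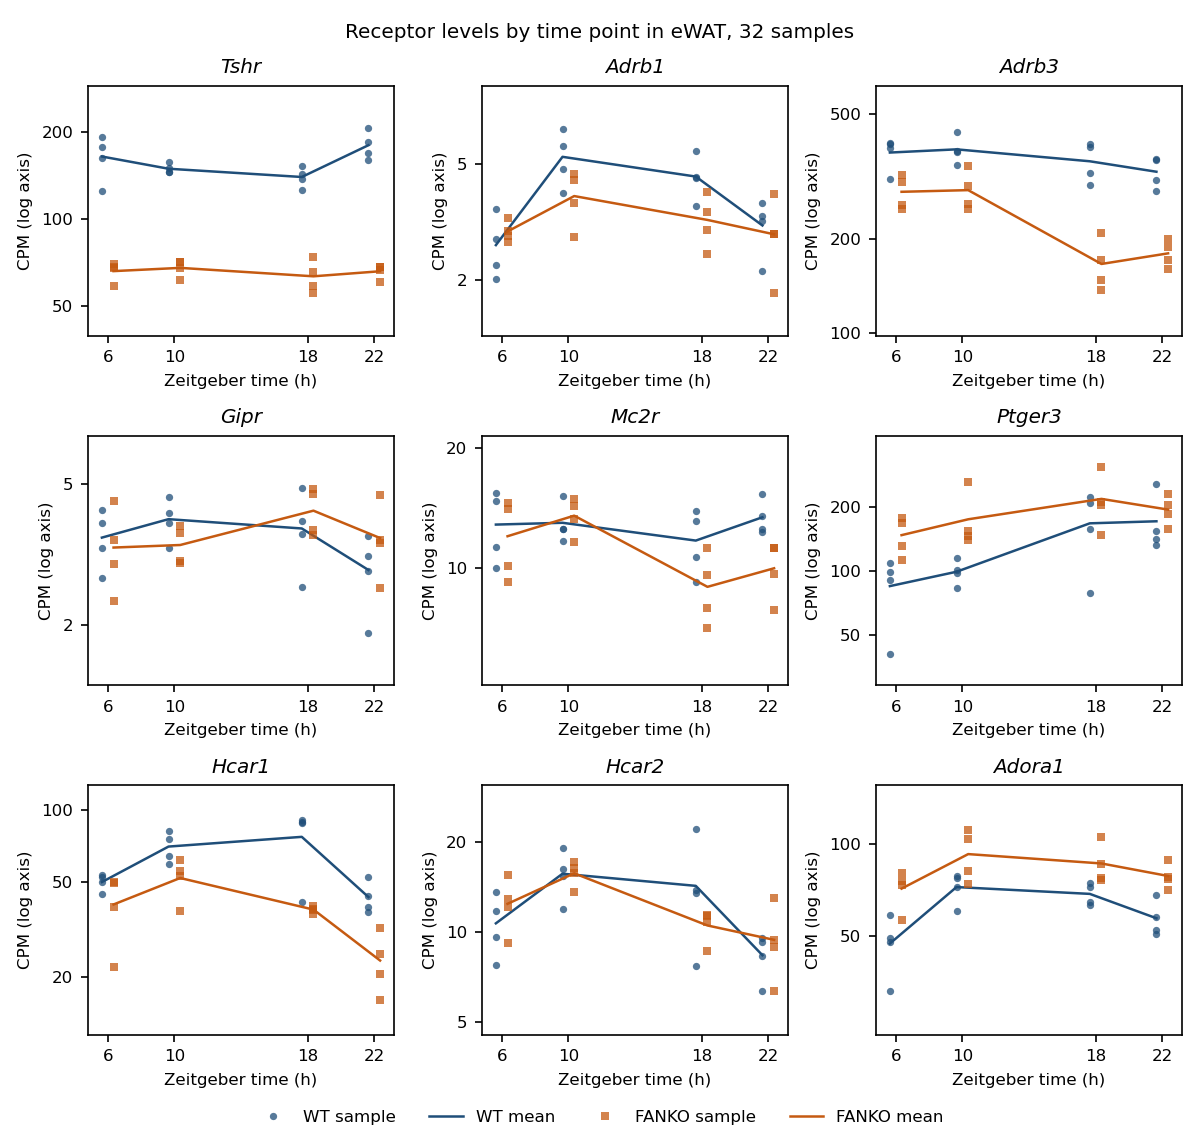
CPM (log axis) of the 9 receptors in eWAT by zeitgeber time, with a point for each of 32 samples and lines through the means of 4. *Tshr* of all FANKO samples lies at or below 74.0, under the lowest WT sample at 125, while *Ptger3* and *Adora1* are higher in FANKO mice.

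The beta-adrenergic receptors carry the sympathetic signal to adipocytes. *Adrb1* (chromosome 19, 56722199 to 56733113, plus strand, ENSMUSG00000035283), whose promoter is printed above, ranged from 8.91 to 36.8 CPM in WT BAT (median 21.1) and from 4.90 to 9.71 in FANKO BAT (median 7.40). The genotypes overlapped only at ZT 18, through the library that stood apart. The fall was 3.01-fold (log2 fold change -1.59 ± 0.11 SE, edgeR adjusted p = 2.0e-19). In eWAT its level was low in both genotypes, with medians of 3.62 and 2.96 CPM, and the difference did not pass the test (-0.24, 95% interval -0.49 to 0.00, edgeR adjusted p = 0.091) except with library size scaling alone (-0.49). The genotype difference in BAT minus that in eWAT was -1.35 ± 0.17 (SE, edgeR adjusted p = 2.8e-10).

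*Adrb3*, the main beta-adrenergic receptor of rodent adipocytes, lies on chromosome 8 from 27225776 to 27250616 (minus strand, ENSMUSG00000031489). It ranged from 69.7 to 230 CPM in WT BAT (median 139) and from 53.7 to 94.4 in FANKO BAT (median 63.5), with all FANKO samples below all WT samples at ZT 18 and ZT 22 and overlap at ZT 6 and ZT 10. The level fell 2.07-fold in BAT (log2 fold change -1.05 ± 0.10 SE, edgeR adjusted p = 7.5e-15) and 1.63-fold in eWAT (-0.70 ± 0.09 SE, edgeR adjusted p = 4.6e-09). In eWAT the range was 284 to 440 CPM in WT and 137 to 341 in FANKO mice. The genotype differences of the depots differed by -0.35 ± 0.13 (SE), which did not pass the threshold (edgeR adjusted p = 0.0192). Without the library that stood apart that difference was -0.40 and passed (edgeR adjusted p = 0.00357), and with library size scaling alone its sign turned, to 0.49.

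Exons of *Adrb3* share 839 bases with the antisense gene *Gm45470*, and 20.9% of its 38-base stretches also occur in other genes, most of them in *Gm45470*. *Gm45470* ranged from 13.3 to 27.3 CPM in WT and from 6.49 to 13.7 in FANKO BAT, and from 51.0 to 94.1 and from 12.4 to 49.5 in eWAT. Whether the counting used strand is not given in the sources used here, so part of the reads of the pair may have been assigned to either or to neither gene.

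*Gipr* (chromosome 7, 19156061 to 19166127, minus strand, ENSMUSG00000030406) was the least abundant per kilobase in WT BAT. It ranged from 0.699 to 3.20 CPM in WT and from 1.18 to 3.05 in FANKO BAT, with overlap at every time point in both depots. The difference was 0.31 in BAT (95% interval 0.03 to 0.58, edgeR adjusted p = 0.0442) and 0.03 in eWAT (-0.22 to 0.27, edgeR adjusted p = 0.872), so neither passed, although BAT passed without replicate 3 (0.48, edgeR adjusted p = 0.00599) and with library size scaling alone (0.91). The sign in eWAT turned with RLE factors (-0.03), library size scaling (-0.22) and DESeq2 (-0.04).

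*Mc2r* (chromosome 18, 68406907 to 68429320, minus strand, ENSMUSG00000045569) ranged from 0.425 to 3.84 CPM in WT BAT (median 2.29) and from 0.602 to 1.79 in FANKO BAT (median 1.25). It fell 1.88-fold in BAT (log2 fold change -0.91 ± 0.14 SE, edgeR adjusted p = 3.9e-08), with all FANKO samples lower at ZT 18 and ZT 22. With library size scaling alone that fall did not pass (-0.32, edgeR adjusted p = 0.0322). In eWAT, where it was more abundant (medians 12.5 and 11.2 CPM), the difference was -0.22 (95% interval -0.41 to -0.02, edgeR adjusted p = 0.0544) and passed with DESeq2 (-0.27, DESeq2 adjusted p = 0.00578) and with library size scaling alone (-0.46). The depots differed in this by -0.69 ± 0.17 (SE, edgeR adjusted p = 2.6e-04), a difference that was -0.55 and did not pass without replicate 3 (edgeR adjusted p = 0.0200) and was 0.14 with library size scaling alone. *Mrap*, whose product carries the ACTH receptor to the cell surface, had medians of 154 and 171 CPM in WT and FANKO BAT (0.11 ± 0.10 SE, edgeR adjusted p = 0.280) and rose in eWAT from 115 to 253 (0.89 ± 0.10 SE, edgeR adjusted p = 6.4e-12).

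Among the Gi-coupled receptors, *Ptger3* (chromosome 3, 157566892 to 157645888, plus strand, ENSMUSG00000040016) had the largest genotype difference of the set and opposite directions in the depots. WT BAT samples had 136, 142, 198 and 161 CPM at ZT 6, 137, 132, 126 and 143 at ZT 10, 293, 299, 253 and 62.6 at ZT 18 and 317, 355, 324 and 304 at ZT 22. FANKO BAT samples had 31.0, 37.8, 51.2 and 26.7 at ZT 6, 64.7, 28.3, 31.3 and 45.5 at ZT 10, 19.3, 29.0, 72.9 and 31.4 at ZT 18, and 38.1, 46.2, 39.0 and 33.5 at ZT 22. The genotypes overlapped only at ZT 18, where the WT sample of 62.6 was below the FANKO sample of 72.9. The level fell 5.11-fold in BAT (log2 fold change -2.35 ± 0.17 SE, edgeR adjusted p = 1.7e-19), and the value without that WT library was -2.43.

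In eWAT, *Ptger3* rose 1.46-fold (0.55 ± 0.16 SE, edgeR adjusted p = 0.00231), from a median of 112 CPM (range 40.7 to 259) to 173 (range 113 to 311). All FANKO samples were above all WT samples at ZT 6 and ZT 10, with overlap at ZT 18 and ZT 22. The rise did not pass without replicate 1 (0.50, edgeR adjusted p = 0.0217), without replicate 2 (0.47, edgeR adjusted p = 0.0284), with library size scaling alone (0.31) or relative to the adipocyte markers (0.45, adjusted permutation p = 0.0222). The difference between depots was -2.9 ± 0.23 (SE, edgeR adjusted p = 2.0e-17), the largest of the 9 in size.

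*Hcar1* and *Hcar2* are neighbours on the minus strand of chromosome 5, at 123876736 to 123880020 (ENSMUSG00000049241) and 123863570 to 123865499 (ENSMUSG00000045502), and no stretch of 38 bases occurs in both. In FANKO BAT the former fell and the latter rose. *Hcar1* fell 2.91-fold (-1.54 ± 0.15 SE, edgeR adjusted p = 6.3e-14), from a median of 59.9 CPM (range 15 to 108) to 18 (13.9 to 31.6), with overlap only at ZT 18. *Hcar2* rose 1.78-fold (0.83 ± 0.14 SE, edgeR adjusted p = 2.0e-07), from a median of 7.52 CPM (range 3.47 to 12.9) to 15.3 (7.33 to 20.3), with full separation at ZT 10. *Hcar2* is also expressed by macrophages and neutrophils, and 5 of the 6 macrophage markers rose in FANKO BAT, with a median log2 fold change of 2.79 over the 6. The part of those cells in the rise of *Hcar2* was not tested.

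In eWAT, *Hcar1* fell 1.57-fold (-0.65 ± 0.14 SE, edgeR adjusted p = 1.0e-04), with medians of 52.6 and 38.4 CPM and all FANKO samples lower at ZT 18 and ZT 22. *Hcar2* had medians of 11.9 and 11.8 CPM and a difference of -0.01 (95% interval -0.26 to 0.25, edgeR adjusted p = 0.966), whose sign turned without replicate 1 or 4. Macrophage markers summed to 353 to 497 CPM in WT and 333 to 567 in FANKO eWAT, although 3 of 6 were higher and 1 lower by edgeR. The genotype differences of the depots differed by -0.89 ± 0.21 for *Hcar1* (SE, edgeR adjusted p = 1.4e-04), which did not pass with library size scaling alone (-0.05), and by 0.84 ± 0.19 for *Hcar2* (SE, edgeR adjusted p = 7.9e-05).

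*Adora1* (chromosome 1, 134199223 to 134235431, minus strand, ENSMUSG00000042429) fell 1.27-fold in BAT and rose 1.35-fold in eWAT. It ranged from 103 to 170 CPM in WT BAT and from 73.3 to 130 in FANKO BAT (-0.34 ± 0.08 SE, edgeR adjusted p = 5.2e-05), a direction that turned with library size scaling alone (0.24). In eWAT it ranged from 33.0 to 78.7 in WT and from 56.2 to 112 in FANKO mice (0.44 ± 0.08 SE, edgeR adjusted p = 1.6e-06), with separation at ZT 18 and ZT 22 and no call with library size scaling alone (0.19). The depots differed by -0.78 ± 0.11 (SE, edgeR adjusted p = 3.3e-09), or 0.05 with library size scaling alone. *Mybph*, on the other strand, shares 1162 exonic bases with *Adora1* and holds most of the 18.2% of its 38-base stretches that occur in other genes. It reached 1.49 CPM at most.

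In all, the genotype difference in level was not the same in the 2 depots for 7 of 9 receptors: it was higher in BAT than in eWAT for *Tshr* and *Hcar2*, and lower for *Adrb1*, *Ptger3*, *Hcar1*, *Adora1* and *Mc2r*. Over all genes, 32.2% had a higher and 32.1% a lower difference in BAT. Library size scaling alone gave 4 higher and 2 lower among the receptors and moved the median of all genes from 0.04 to 0.88.

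Rhythm was tested for the other 8 receptors in BAT and for all 9 in eWAT, by testing cosine and sine terms of period 24 h jointly. In WT BAT, 2 of 8 were rhythmic, against 13.9% of all genes. *Adrb3* (edgeR adjusted p = 6.3e-06) had means of 116, 93.4, 184 and 191 CPM at ZT 6, 10, 18 and 22, and *Ptger3* (edgeR adjusted p = 0.00229) 159, 134, 227 and 325. Like *Tshr*, both were lowest at ZT 10 and highest at ZT 22. *Mc2r*, with the same order of lowest and highest time point (1.59 and 3.08 CPM), narrowly failed the threshold (edgeR adjusted p = 0.0103) and was called by DESeq2 (adjusted p = 0.00377). Amplitudes were 1.03 ± 0.19 log2 CPM for *Adrb3*, 1.27 ± 0.06 for *Ptger3* and 0.87 ± 0.19 for *Mc2r* (SE). The call of *Ptger3* was lost without replicate 1, 2 or 3 (edgeR adjusted p = 0.0298, 0.0365 and 0.0192) and was 1.6e-04 without the library that stood apart. Without that library the highest mean of *Adrb3* was at ZT 18 (214 ± 10.9 CPM, SD, n = 3).

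In FANKO BAT, 0 of 8 receptors were rhythmic by edgeR or DESeq2 and 0 had an unadjusted p under 0.05 by either tool, where 2.84% of all genes were rhythmic. Means of *Adrb3* were 73.6, 69.0, 67.0 and 60.7 CPM and those of *Ptger3* 36.7, 42.4, 38.2 and 39.2. WT amplitude exceeded FANKO amplitude for 7 of the 8, and for 5 of the same 8 in eWAT. The share over all genes is not given here, and a highest minus lowest mean also grows with the spread between samples. A difference in rhythm between genotypes was called for *Adrb3* alone among the 8 (edgeR adjusted p = 8.8e-04, against 2.76% of genes), and that call was lost without replicate 1 (edgeR adjusted p = 0.0173) or 3 (0.0212). For *Ptger3* the difference in rhythm did not pass (edgeR adjusted p = 0.0773), although its WT rhythm did and its FANKO rhythm did not.

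**Figure D5:**
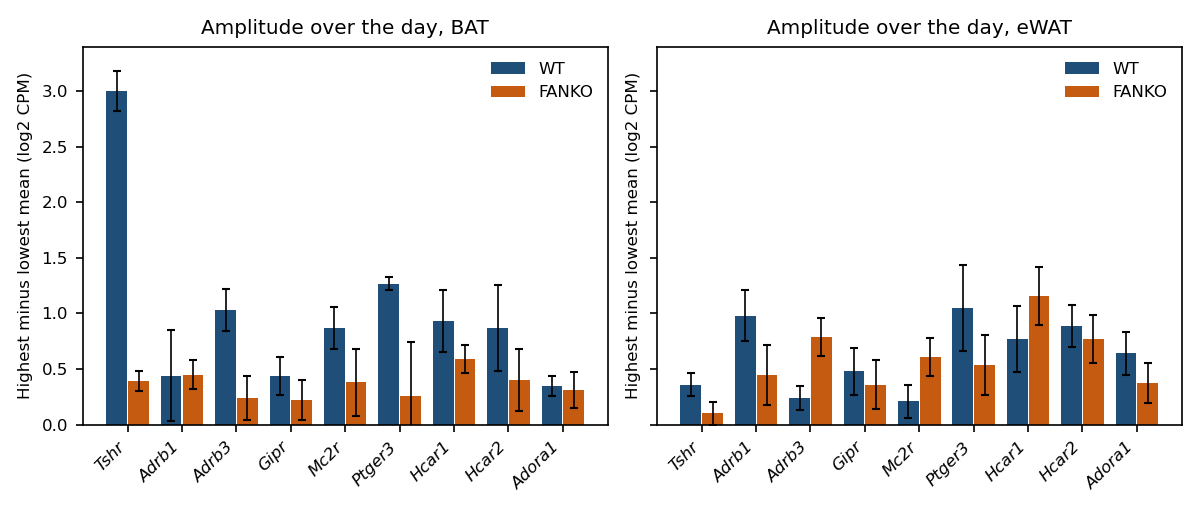
Amplitude of each receptor, the highest minus the lowest of 4 time-point means in log2 CPM, in WT and FANKO mice of each depot, with standard errors from the replicates behind those means. *Tshr* has 3.00 in WT BAT and 0.39 in FANKO BAT, and the other 8 receptors lie between 0.35 and 1.27 in WT BAT.

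In WT eWAT, 3 of 9 receptors were rhythmic, against 9.38% of genes: *Adrb1* (edgeR adjusted p = 0.00351), *Adora1* (0.00667) and *Ptger3* (0.00991). *Adrb1* and *Adora1* were highest at ZT 10 and lowest at ZT 6, with means of 5.29 and 2.63 CPM and of 72.4 and 47.2 CPM. *Ptger3* rose from 85.0 at ZT 6 and 99.4 at ZT 10 to 168 at ZT 18 and 172 at ZT 22, and so was high in the dark phase in both depots of WT mice. These calls were not stable when a replicate number was left out, which also takes a sample from every group. *Adrb1* did not pass without replicate 1 or 3 (edgeR adjusted p up to 0.105), *Ptger3* without replicate 1, 2 or 3 (up to 0.161) and *Adora1* without any replicate number (up to 0.0793). *Hcar2* (edgeR adjusted p = 0.0138) and *Hcar1* (0.0451), both lowest at ZT 22, did not pass, although DESeq2 called *Hcar2* (adjusted p = 0.00758). *Ptger3* was also lost with the time point as a factor (edgeR adjusted p = 0.0252).

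In FANKO eWAT, 1 of 9 was rhythmic, against 6.77% of genes. *Adrb3* had means of 282, 286, 166 and 179 CPM at ZT 6, 10, 18 and 22 (edgeR adjusted p = 3.7e-04), high in the light phase, where its WT means were 377, 386, 354 and 328 (edgeR adjusted p = 0.630). All FANKO samples were below all WT samples at ZT 10, 18 and 22. *Hcar1* in FANKO eWAT (51.8 CPM at ZT 10 and 23.5 at ZT 22) did not pass with edgeR (adjusted p = 0.0239) but did with DESeq2 (adjusted p = 0.00928) and without the library that stood apart (edgeR adjusted p = 0.00606). A difference in rhythm between genotypes was called for 0 of 9 receptors in eWAT by edgeR and by DESeq2, with 1 at an unadjusted p under 0.05 by each tool, where 1.15% of genes differed. For *Adrb3* this edgeR adjusted p was 0.178.

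The genes whose levels followed *Tshr* most closely over the 16 WT eWAT samples, the depot where it is more abundant, were *Nipa1* (Pearson r = 0.880, Spearman rho = 0.900), *Stambpl1* (0.859 and 0.774), *Rps6ka3* (0.858 and 0.882), *Arhgap18* (0.856 and 0.900) and *Lrrc8d* (0.842 and 0.841), among 13200 genes compared. *Ptger3* had closer companions over the 16 WT BAT samples, *Prune2* (r = 0.985, rho = 0.982) and *Lacc1* (0.963 and 0.891), and r for *Prune2* was 0.980 without the 2 samples farthest from the median and 0.982 without the library that stood apart. For *Adrb1* in WT BAT the closest were *Gpr153* (0.849) and *Col27a1* (0.846), which rested on few samples, with r = 0.522 and 0.515 without the 2 farthest. *Adora1* in WT BAT was most like *Prob1* (0.880) and *Nr3c2* (0.844). In WT eWAT, *Adrb3* was most like *Wdfy2* (0.838) and *Gm23245* (0.822), *Gipr* like *Grik5* (0.820, but 0.588 without the 2 farthest samples) and *Zfyve26* (0.815), *Hcar1* like *Lgals12* (0.886) and *Etfbkmt* (0.881), *Hcar2* like *Trit1* (0.895), and *Mc2r* like *Cdsn* (0.881) and *Sesn3* (0.878). These correlations are the highest of many, over samples that share time points and library composition, and are given without a test.

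The rest of the cAMP pathway was counted from 11 fixed lists, of which 138 of 156 genes were tested. In FANKO BAT, 52 were higher and 50 lower with a median log2 fold change of 0.04, and in FANKO eWAT 35 were higher and 43 lower with a median of -0.09. Over all genes tested, the background for each list as well, 33.1% were higher and 33.9% lower in BAT, and 27.6% higher and 22.8% lower in eWAT. In BAT, rhythm was called for 29 of the 138 with WT (21%) and for 14 with FANKO samples (10.1%), against 13.9% and 2.84% of all genes. In eWAT the numbers were 21 (15.2%) and 10 (7.25%), against 9.38% and 6.77%.

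Among 14 other tested receptors that raise cAMP, 7 were higher and 3 lower in FANKO BAT, and 2 higher and 5 lower in FANKO eWAT. *Mc5r*, another melanocortin receptor, fell in BAT from a median of 2.12 to 0.225 CPM (log2 fold change -3.48 ± 0.24 SE) and rose in eWAT (1.05 ± 0.22). *Vipr1*, a receptor for vasoactive intestinal peptide, rose in BAT from a median of 0.148 to 1.16 CPM (2.92 ± 0.29), and *Pth1r*, the parathyroid hormone receptor, rose in eWAT from 21.9 to 67.0 (1.70 ± 0.14). Of 10 other receptors that lower cAMP, 4 were higher and 3 lower in BAT, while 0 were higher and 6 lower in eWAT. *Cnr1*, the cannabinoid receptor, fell in eWAT from a median of 15.3 to 3.69 CPM (-2.01 ± 0.21) and *Ffar2*, a receptor for short-chain fatty acids, from 24.8 to 7.66 (-1.62 ± 0.13). *Lpar1*, for lysophosphatidic acid, rose in BAT (1.24 ± 0.08). All of these passed with edgeR at the FDR of 0.01.

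Downstream of the receptors, 7 of 15 G protein genes were higher and 6 lower in FANKO BAT. *Gng2*, a gamma subunit, rose (2.26 ± 0.12 SE) and *Gnas*, the gene of the stimulatory alpha subunit, had a median of 22.9 CPM in WT and 9.46 in FANKO BAT (-1.28 ± 0.12), at a locus whose overlapping transcripts make gene counts uncertain. Of 10 adenylyl cyclases, 2 were higher and 3 lower in BAT. *Adcy3* fell from a median of 231 to 64 CPM (-1.85 ± 0.10) and *Adcy7* rose from 10.5 to 75.0 (2.98 ± 0.10). T cell and macrophage markers rose in the same samples, and their part in these changes was not tested. In eWAT 2 were higher and 5 lower, with *Adcy10*, the soluble cyclase, up (1.57 ± 0.21).

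Phosphodiesterases, which degrade cAMP, were lower for 8 of 16 genes in FANKO BAT and higher for 4. *Pde3a* fell (-1.63 ± 0.10 SE) and *Pde1a* fell (-1.51 ± 0.07). In eWAT 6 were lower and 4 higher, *Pde11a* among the former (-1.20 ± 0.22) and *Pde4d* among the latter (0.84 ± 0.10). Of 19 genes of protein kinase A, its inhibitors and anchors and the EPAC proteins, 10 were lower and 4 higher in BAT. The inhibitor genes *Pkib*, from a median of 0.152 to 6.61 CPM (5.37 ± 0.24), and *Pkia*, from 3.88 to 18.7 (2.35 ± 0.12), rose in BAT. *Prkar2b*, a regulatory subunit, was lower in both depots (-2.08 ± 0.07 in BAT and -0.68 ± 0.07 in eWAT). *Akap1*, an anchor at mitochondria, fell in BAT (-1.55 ± 0.07) and rose in eWAT (0.69 ± 0.07).

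Genes that end receptor signalling were split, with 6 of 13 higher and 6 lower in FANKO BAT and 6 higher and 3 lower in FANKO eWAT. *Rgs1* rose in BAT from a median of 0.0942 to 26.5 CPM (7.84 ± 0.31 SE) and *Rgs16* from 0.170 to 9.68 (5.70 ± 0.26), both RGS proteins that are also made by lymphocytes. T cell markers rose for 5 of 5 genes in BAT, with a median log2 fold change of 5.24, and their part in the rise of these genes was not tested. *Rgs7* fell in eWAT (-1.50 ± 0.13). Of 4 tested accessory proteins, 1 was higher and 1 lower in BAT, where *Ramp1* rose (1.67 ± 0.20), and 1 was higher and 2 lower in eWAT.

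Of the genes that cAMP induces, 5 of 11 were higher in FANKO BAT and 2 lower. The immediate early genes *Fos*, from a median of 0.582 to 13.0 CPM (4.60 ± 0.23 SE), and *Nr4a3*, from 0.554 to 6.73 (3.49 ± 0.22), rose, and both respond to many other stimuli. Macrophage and T cell markers rose in the same samples, and their part in the rise of *Fos* and *Nr4a3* was not tested. The 2 lower genes were *Ucp1*, from a median of 4310 to 1310 CPM (-1.80 ± 0.23), and *Irf4* (-0.67 ± 0.12). In eWAT 0 were higher and 2 lower by edgeR, namely *Dio2* (-1.72 ± 0.53), at medians of 0.976 and 0.429 CPM, and *Irf4* (-0.40 ± 0.12). In the CREB branch, 5 of 11 were higher and 2 lower in BAT, with *Sik1* (1.15 ± 0.14) and *Crtc1* (0.63 ± 0.08) up, and 2 higher and 4 lower in eWAT, with *Atf1* up (0.34 ± 0.05) and *Crtc3* down (-0.54 ± 0.07).

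Enzymes and transporters that make or remove the ligands were higher for 7 and lower for 6 of 15 genes in BAT, against 33.1% and 33.9% of all genes, and higher for 9 and lower for 4 in eWAT, against 27.6% and 22.8%. For the prostaglandin E2 ligand of *Ptger3*, *Ptgs2* rose in FANKO BAT from a median of 0.158 to 1.08 CPM (2.97 ± 0.38 SE) and *Ptges* from 12.6 to 52.3 (2.03 ± 0.18), while the receptor itself fell. *Ptgs1* rose as well (0.32 ± 0.09). The synthase genes *Ptges2*, from a median of 108 to 50.8 CPM (-1.14 ± 0.07), and *Ptges3*, from 45.3 to 38.4 (-0.26 ± 0.05), fell in BAT. Macrophage markers rose in the same samples, and their part in these changes was not tested. For noradrenaline, *Maoa*, a degrading enzyme, rose in FANKO eWAT from a median of 43.2 to 378 CPM (3.15 ± 0.10), and *Slc6a2*, the transporter of nerve terminals, was at medians of 0.576 and 0.210 CPM (-1.70 ± 0.31).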

How the data were processed

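RNA was measured in 64 samples with a stranded total RNA kit after ribosomal RNA removal. The authors deposited raw counts per gene, made with STAR 2.5.3a and featureCounts 1.5.3 from 38-bp paired-end reads on GRCm38.p5 and GENCODE 15. The options for strand and for reads with several matches are not given in the sources used here. Gene coordinates, exonic lengths, shared bases and 38-base stretches were taken here from GENCODE release 21, which is not the release of the counts. No row lacked a gene name, and 0 columns belonged to other samples.

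Genes were filtered with filterByExpr of edgeR 4.0.16 in R 4.3.3 (minimum count 10, minimum total 15), which left 20249 genes and removed 32387. A single quasi-likelihood model with TMM factors and 12 coefficients, a mean, a cosine and a sine for each depot and genotype, was fitted to all samples. Tests on means gave levels and joint tests of cosine and sine gave rhythms. P values were adjusted by Benjamini-Hochberg over all genes, with calls at an FDR below 0.01. Standard errors and 95% intervals of differences in mean level are those of this model. Standard errors relative to the adipocyte markers come from samples pooled over time points, and those of amplitudes from the replicates. Log2 CPM used a prior count of 2. No replicate pair agreed within sampling noise, the lowest chi-square per gene over 96 pairs being 6.17. In simulated counts with 200 genes changed by a log2 fold change of 1 between genotypes in BAT, 95.5% were called, among 19410 genes fitted, and of 200 genes that lost a rhythm of 1.5 log2 units from peak to trough in BAT, 78% were called for the difference in rhythm.

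The receptors and the lists of other genes were chosen with earlier results of these data known. All 9 receptors were named. Examples from each other list were taken from the 2 called genes with the largest absolute log2 fold change per depot. *Mrap* was also given in BAT for its link to *Mc2r*, and *Prkar2b* and *Akap1* were also given in BAT beside their eWAT values. *Ptgs1*, *Ptges2* and *Ptges3* were added in BAT beside *Ptgs2* and *Ptges*. *Ucp1* and *Irf4* were added in BAT as the genes of their list that were lower there. The genes most like each receptor, 5 for *Tshr* and 2 for the others, had the highest Pearson r of log2 CPM over the 16 WT samples of the depot with the higher WT mean, among genes with a mean log2 CPM of at least 1. A gene that this rule gives for *Hcar2* is not reported here. The alternatives were other size factors, no filter, DESeq2 1.42.0, a replicate block, the time point as a factor and leaving out each replicate number. The values without 1 library and those relative to the adipocyte markers were added after seeing the data.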

Additional observations from a re-analysis of the deposited data

Results flagged for a closer look

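Outlying samples were sought with Dixon's test in the 144 groups of 4 samples, 16 for each receptor, and 7 were found, where chance gives about 1 in 20 groups. In log2 CPM, 3 of the 7 belonged to WT BAT replicate 4 at ZT 18, the library described as standing apart, with *Adrb1* at 3.18 against 4.35 in the nearest sample, *Adrb3* at 6.55 against 7.67 and *Ptger3* at 5.97 against 7.99. In FANKO BAT at ZT 10, *Adrb1* of replicate 2 was low (2.33 against 2.95). In WT eWAT, *Adrb3* of replicate 2 at ZT 6 (8.28 against 8.61) and *Hcar1* of replicate 2 at ZT 18 (5.37 against 6.46) were low. In FANKO eWAT at ZT 10, *Ptger3* of replicate 1 was high (8.03 against 7.27).

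The genotype difference in level differed between the depots, by the interaction test of edgeR, for 7 receptors. As log2 differences of BAT minus eWAT these were 0.86 for *Tshr*, 0.84 for *Hcar2*, -0.69 for *Mc2r*, -0.78 for *Adora1*, -0.89 for *Hcar1*, -1.35 for *Adrb1* and -2.9 for *Ptger3*.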

How the results depend on the processing

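Library size scaling alone turned the sign of the genotype difference of *Tshr* (0.19) and *Adora1* (0.24) in BAT and of *Gipr* (-0.22) in eWAT, of the depot difference in that effect for *Adrb3* (0.49), *Adora1* (0.05) and *Mc2r* (0.14), and of the WT depot difference of *Ptger3* (-0.07). The genotype difference of *Gipr* in eWAT, near 0, was -0.03 with RLE factors, -0.01 without the filter, -0.04 with DESeq2 and -0.01 to 0.06 when a replicate number was left out, and that of *Hcar2* was then -0.14 to 0.14. The WT depot difference of *Hcar1* was then -0.15 to 0.05, and 0.03 without BAT WT ZT 18 replicate 4. Relative to the adipocyte markers, signs turned for *Tshr* (0.43), *Adora1* (0.47) and *Mc2r* (0.05) in BAT and *Gipr* (-0.09) in eWAT. Counts of rhythmic receptors moved in WT BAT to between 1 and 2 when a replicate number was left out and to 3 with DESeq2 or at an FDR of 0.05, in WT eWAT to 1 with library size scaling, 2 with the replicate block or the time point as a factor, 4 with DESeq2, 0 to 2 when a replicate number was left out and 5 at an FDR of 0.05, and in FANKO eWAT to 2 with DESeq2, at an FDR of 0.05 and without BAT WT ZT 18 replicate 4. The count of receptors whose rhythm differed between genotypes in BAT was 0 to 1 when a replicate number was left out. The causes were not tested.

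Whether the replicate numbers pair the samples was not settled. Among same-numbered pairs, 10 of 32 across depots and 6 of 32 across genotypes had a correlation of deviations over 0.1. Across depots, 18 samples correlated best with their own number, and this count was not tested against chance. Samples of the same number from both depots may therefore share an animal. With the replicate block, 85 of the values kept their direction and call, the rhythm of *Ptger3* in WT eWAT was no longer called (edgeR adjusted p = 0.0107) and the difference of *Hcar2* in eWAT was 0.01. *Gipr* and *Mc2r* had few counts, down to 8 and 3 in a sample, which limits what can be said of their rhythm.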
